A study of Mus musculus with 35 samples.

Results

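The 9 genes described here, Dazl, Ddx4, Mael, Asz1, Tdrd1, Mov10l1, Tex101, Piwil2 and Tex19.1, are germline genes, most of them with roles in the piRNA pathway or in holding down transposable elements, and they were taken by name from a table of 26127 gene rows. The question was how their RNA behaves in mouse embryonic stem cells (ESCs) that lose Dnmt1, the maintenance DNA methyltransferase. All Dnmt1 KO libraries came from a line in which both Dnmt1 alleles carry loxP sites and a tamoxifen-induced Cre recombinase removes the gene, and the labels call the controls wild type (WT). Whether the controls also received 4-hydroxytamoxifen is not given in the sources used here. Total RNA was sequenced at days 0, 1, 3, 6, 9, 11, 17 and 25, with 2 WT and 2 KO libraries per day and 1 further pair at day 1. A single further library, labelled Dicer KO, came from a CRISPR clone of the same floxed line in which Dnmt1 was not deleted. The study's methods describe a C57BL/6 line grown in serum and LIF with or without feeder cells, whereas the labels name the strain background as E14. Nothing in the labels says that libraries of a group came from separate cultures, so the p-values measure only the spread between these libraries.

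PIWI proteins bind small RNAs, the piRNAs, and with them silence transposable elements in the germline by cutting their transcripts and by directing DNA methylation. Their cofactors are helicases, tudor-domain proteins and mitochondrial or granule scaffolds. The promoters of several of these genes are methylated in somatic cells and are read in primordial germ cells, which lose most of their DNA methylation. Because DNMT1 acts at CpG dinucleotides, promoter windows from RefSeq (GRCm38.p6) are shown for 3 genes that were higher in the KO (Dazl, Asz1, Tex19.1) and for Ddx4, which was not called on any day. Each window runs from 250 bases before to 50 bases after the annotated start, 5′ to 3′ on the gene's strand, and capitals mark CpG dinucleotides.
Dazl, chr17:50293571-50293870, minus strand: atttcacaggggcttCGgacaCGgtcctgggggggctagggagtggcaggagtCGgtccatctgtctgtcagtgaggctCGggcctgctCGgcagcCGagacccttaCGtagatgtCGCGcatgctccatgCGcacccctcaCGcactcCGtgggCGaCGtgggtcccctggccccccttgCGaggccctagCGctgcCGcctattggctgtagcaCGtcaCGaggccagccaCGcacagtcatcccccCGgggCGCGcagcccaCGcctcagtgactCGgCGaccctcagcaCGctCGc
Asz1, chr6:18109012-18109311, minus strand: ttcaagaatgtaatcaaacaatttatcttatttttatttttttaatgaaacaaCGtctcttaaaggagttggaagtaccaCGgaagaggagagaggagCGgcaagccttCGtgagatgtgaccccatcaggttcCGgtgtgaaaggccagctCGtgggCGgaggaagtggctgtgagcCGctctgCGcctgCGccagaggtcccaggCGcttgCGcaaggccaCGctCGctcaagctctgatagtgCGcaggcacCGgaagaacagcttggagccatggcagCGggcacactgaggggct
Tex19.1, chr11:121145893-121146192, plus strand: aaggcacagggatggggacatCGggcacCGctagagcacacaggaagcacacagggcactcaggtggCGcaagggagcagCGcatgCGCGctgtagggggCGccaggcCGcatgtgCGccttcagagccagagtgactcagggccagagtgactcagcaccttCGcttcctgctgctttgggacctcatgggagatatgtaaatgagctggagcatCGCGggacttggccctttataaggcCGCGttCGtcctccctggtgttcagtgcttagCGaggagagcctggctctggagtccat
Ddx4, chr13:112652261-112652560, minus strand: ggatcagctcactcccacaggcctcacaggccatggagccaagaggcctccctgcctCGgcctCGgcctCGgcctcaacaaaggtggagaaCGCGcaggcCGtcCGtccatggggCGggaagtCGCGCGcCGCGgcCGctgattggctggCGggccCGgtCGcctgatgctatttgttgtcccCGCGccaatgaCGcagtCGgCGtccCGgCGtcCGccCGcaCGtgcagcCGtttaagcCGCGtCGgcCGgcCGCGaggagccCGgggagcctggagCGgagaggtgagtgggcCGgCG

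The Dazl window held 28 CpGs, the Asz1 window 17, the Tex19.1 window 16 and the Ddx4 window 38, against a median of 7 over all 32851 promoter windows of the same length. The Mael window held 24 CpGs, the Mov10l1 window 20 and the Tex101 window 19. Tdrd1 had 3 annotated starts, whose windows held 20, 25 and 3 CpGs. Windows were given for 8 of the 9 genes, and Piwil2 had none. The E-box CACGTG, a sequence bound by MGA and MAX of a complex that represses germline genes, was searched on both strands and occurred in the windows of Ddx4, Mael, Mov10l1 and in 2 of those of Tdrd1. It did not occur in the windows of Dazl, Asz1, Tex101 or Tex19.1, and 7.15% of all windows held it. The letters GCGGGA, the core of an E2F6 site, or their reverse complement occurred in the windows of Ddx4, Mael and Tex19.1, and in 19.98% of all windows. These matches describe letters only.

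In the NCBIM37 build used for the files, Dazl lies at chr17:50418719-50432924, Ddx4 at chr13:113388541-113442518, Mael at chr1:168131516-168168875, Asz1 at chr6:18000964-18059061 and Tdrd1 at chr19:56900699-56944502. Mov10l1 lies at chr15:88813339-88885582, Tex101 at chr7:25453031-25457069, Piwil2 at chr14:70772287-70828901 and Tex19.1 at chr11:121007457-121009633. The values are reads over exons scaled to exon length and to the mapped reads of the library (RPKM), so they can be compared between genes. No exon base of the 9 genes was shared with another annotated gene.

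Dnmt1 itself was checked first. It was level at day 0, at 18.3 and 18.4 RPKM in the WT and 18.7 and 18.5 RPKM in the KO, and at day 1 it stood at 2.86 and 3.04 RPKM in the KO against 17.9 and 18.1 RPKM in the WT. At day 25 the KO libraries held 4.4 and 4.04 RPKM and the WT libraries 34.8 and 31.6 RPKM. At day 6 the libraries labelled WT held 3.22 and 3.41 RPKM and those labelled KO 20.2 and 20.4 RPKM, opposite to their labels, so every day 6 direction is given as labelled and stands against the label check. The recovered depth ranged from 24.31 to 72.09 mega-reads mapped per library. Gene reads made up 20.23% to 22.01% of mapped reads in 20 libraries (days 0 to 9) and 44.15% to 48.82% in the other 15 (days 11, 17 and 25, the further day 1 pair and the Dicer KO), and RPKM levels are therefore compared between days only within either set. The further day 1 pair was left out of the main fit. The 8 ESC markers summed to 630.0 to 794.9 RPKM in the first set and to 932.5 to 1856 RPKM in the WT and 1196 to 1692 RPKM in the KO libraries of days 11 to 25. At day 25 they summed to 932.5 and 964.5 RPKM in the WT and 1255 and 1268 RPKM in the KO. Nanog differed most in proportion, at a mean of 31.7 RPKM in the WT and 149.5 RPKM in the KO. The other means were also higher in the KO, by less, from Klf4 at 6.71 and 6.91 RPKM to Zfp42 at 14.9 and 27.5 RPKM. Pou5f1 stood at 183.5 and 219.7 RPKM. The part of these marker differences in the day 25 differences was not tested.

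In the Dnmt1 KO libraries Dazl, Asz1 and Tex19.1 were called higher than in the WT at days 9, 17 and 25, Asz1 also at day 11, Tex101 at days 17 and 25, and Piwil2 and Mov10l1 at day 25. At day 11 Dazl and Tex19.1 were also higher in the KO without overlap, by less than a call needed. Ddx4 and Mael were not called on any day, and Tdrd1, too low for the main test, lay lower in the KO at days 9 to 25. At day 6 Dazl and Asz1 were called lower in the libraries labelled KO, a label that the Dnmt1 level of that day contradicts. A gene was called where the limma adjusted p was below 0.05 and the log2 difference of RPKM + 0.1 was at least 1 in size. Of the 9 genes 8 were above 1 RPKM in at least 2 of the 32 libraries fitted and were tested. Asz1 and Tex101 passed that filter only through KO libraries, so their being tested already favours a higher value in the KO, and counts that include them are not evidence about the group.

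**Figure D1:**
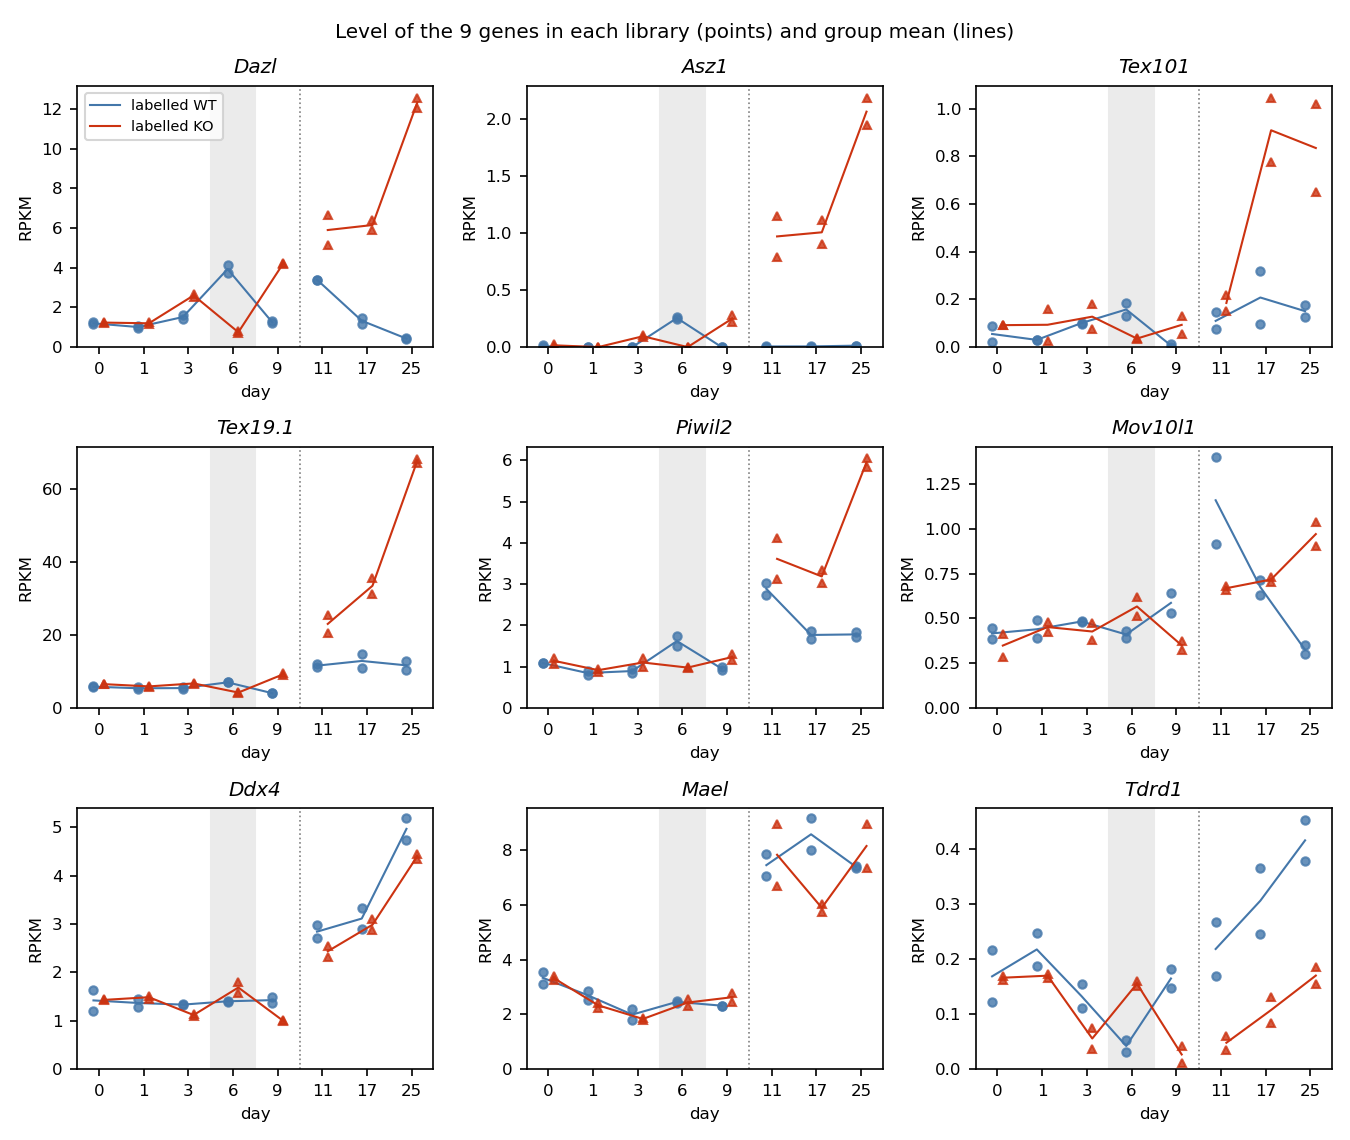
RPKM (vertical axes, linear, from 0) of each gene by day (horizontal axes) in the libraries labelled WT (blue circles) and KO (red triangles), with lines through the means of 2 libraries per group. The dotted line parts the days with a low and a high share of gene reads, across which levels are not compared, and the grey band marks day 6, whose labels Dnmt1 contradicts. At day 25 the red points of Dazl, Asz1, Tex101, Tex19.1, Piwil2 and Mov10l1 lie above both blue points, and those of Tdrd1 lie below them.

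Dazl encodes an RNA-binding protein that controls translation in germ cells. It stood at 1.15 and 1.25 RPKM in the WT and 1.26 and 1.22 RPKM in the KO at day 0. At day 3 it read 1.42 and 1.61 RPKM in the WT and 2.67 and 2.54 RPKM in the KO, with no overlap of the groups. That log2 difference of 0.74 ± 0.11 (standard error of the fit, n = 2 libraries per group, as for all differences here; limma adjusted p = 1.3e-04) was below the size limit. At day 9 the KO libraries held 4.22 and 4.19 RPKM against 1.2 and 1.3 RPKM in the WT, a log2 difference of 1.68 ± 0.11 (limma adjusted p = 4.1e-10). The WT was itself high at day 11, at 3.39 and 3.40 RPKM, when the KO stood at 6.64 and 5.17 RPKM. That log2 difference of 0.77 ± 0.11 (limma adjusted p = 2.3e-05) was below the size limit. At day 17 the WT held 1.48 and 1.18 RPKM and the KO 5.91 and 6.40 RPKM, and at day 25 the WT held 0.453 and 0.404 RPKM and the KO 12.1 and 12.6 RPKM. The day 25 log2 difference was 4.56 ± 0.11 (limma adjusted p = 5.4e-18), and pooled reads per depth were 28.7 times higher in the KO, with an exact 95% counting interval of 22.8 to 36.7.

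Ddx4, the mouse relative of the fly helicase Vasa and a component of germ granules, was already present in the WT. At day 9 it held 1.49 and 1.36 RPKM in the WT and 0.994 and 1.01 RPKM in the KO, a log2 difference of -0.47 ± 0.11 (limma adjusted p = 0.0023) that was below the size limit. At day 25 the WT libraries stood at 4.75 and 5.19 RPKM and the KO libraries at 4.35 and 4.44 RPKM, lower without overlap, with a log2 difference of -0.17 ± 0.11 (limma adjusted p = 0.17). Its log2 difference lay between -0.47 and 0.25 on all 8 days.

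Piwil2 encodes MILI, the PIWI protein that takes part in the cutting of transposon transcripts. Its KO and WT values lay close through day 3, at 0.95 and 0.844 RPKM in the WT and 1.2 and 1.01 RPKM in the KO. At day 17 it held 1.68 and 1.86 RPKM in the WT and 3.03 and 3.34 RPKM in the KO, a log2 difference of 0.81 ± 0.12 (limma adjusted p = 1.1e-05). At day 25 it held 1.85 and 1.72 RPKM in the WT and 6.06 and 5.84 RPKM in the KO, and the log2 difference reached 1.68 ± 0.12 (limma adjusted p = 2.6e-10). The KO libraries were above the WT libraries on each of days 3, 9, 11, 17 and 25.

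Mov10l1, the helicase that starts the processing of piRNA precursors, changed direction. At day 11 it was lower in the KO, at 0.657 and 0.681 RPKM against 1.40 and 0.918 RPKM in the WT (log2 difference -0.69 ± 0.18, limma adjusted p = 0.0043, below the size limit). At day 25 it was higher in the KO, at 1.04 and 0.906 RPKM against 0.300 and 0.350 RPKM in the WT, a log2 difference of 1.33 ± 0.18 (limma adjusted p = 1.6e-06). Mov10l1 was above 1 RPKM in only 2 libraries and left the test without KO day 25 replicate 1 or WT day 11 replicate 1.

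Asz1 encodes an ankyrin-repeat protein of the mitochondrial surface that holds together the cement between germ cell mitochondria. It had 0 reads in both fitted WT libraries at days 1, 3 and 9, and at most 2 reads in each WT library of days 0, 11, 17 and 25. In the KO it had 17 reads in all at day 3, 56 at day 9, 170 at day 11, 175 at day 17 and 353 at day 25, when its levels were 1.95 and 2.18 RPKM against 0.012 and 0.013 RPKM in the WT. The lower ends of the exact 95% counting intervals of the KO to WT ratio, which count the error of the KO reads as well, were 5.65 at day 3 and 17.9 at day 9. At day 25 the ratio was 167 with an exact 95% counting interval of 45.9 to 1384. The calls at days 9, 11, 17 and 25 had limma adjusted p-values of 1.3e-06, 7.7e-11, 3.2e-11 and 7.7e-13, and the size of the fitted differences depended on the pseudocount.

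Tdrd1, a tudor-domain protein that binds MILI, never exceeded 1 RPKM and was not in the main test. At day 9 it held 0.148 and 0.181 RPKM in the WT and 0.043 and 0.011 RPKM in the KO. At day 11 it held 0.170 and 0.267 RPKM in the WT and 0.035 and 0.061 RPKM in the KO, and at day 25 0.453 and 0.379 RPKM in the WT and 0.154 and 0.186 RPKM in the KO. The fitted libraries of the groups did not overlap on any of days 1, 3, 9, 11, 17 and 25, with the WT above, whereas in the further day 1 pair the KO held 0.445 RPKM and the WT 0.300 RPKM. In a fit without the filter it was called lower at day 9 (log2 difference -1.07 ± 0.21, limma adjusted p = 0.0013) and at day 11 (-1.09 ± 0.21, limma adjusted p = 7.2e-04), where 0.312% and 0.775% of 22720 genes were called lower. At day 25 the ratio of WT to KO reads per depth was 2.45, with an exact 95% counting interval of 1.78 to 3.42, and the log2 difference of -0.93 ± 0.21 (limma adjusted p = 0.0012) was below the size limit. Mael, which acts in transposon silencing in male germ cells, stood at 7.37 and 7.44 RPKM in the WT and 7.35 and 8.97 RPKM in the KO at day 25. Its largest difference was at day 17, with 7.99 and 9.18 RPKM in the WT and 6.04 and 5.76 RPKM in the KO (log2 difference -0.53 ± 0.12, limma adjusted p = 0.0016).

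Tex19.1, a mammal-specific gene needed to hold retrotransposons down in germ cells and placenta, had the highest level of the 9. At day 9 it stood at 4.01 and 4.15 RPKM in the WT and 9.53 and 8.95 RPKM in the KO, a log2 difference of 1.16 ± 0.11 (limma adjusted p = 1.3e-07). That call was lost when the further day 1 pair joined the fit (limma adjusted p = 0.22). In that pair Tex19.1 read 21.0 RPKM in the WT and 14.8 RPKM in the KO. At day 17 it stood at 14.8 and 11 RPKM in the WT and 31.3 and 35.7 RPKM in the KO, and at day 25 at 10.6 and 12.8 RPKM in the WT and 68.3 and 67.0 RPKM in the KO. The day 25 log2 difference was 2.53 ± 0.11 (limma adjusted p = 1.8e-13). Tex101, a membrane-anchored protein of testis and sperm, rested on few reads. It had 13 reads in the WT and 59 in the KO at day 17, and 9 and 53 at day 25. At day 25 its levels were 0.126 and 0.175 RPKM in the WT and 1.02 and 0.650 RPKM in the KO, a log2 difference of 1.88 ± 0.37 (limma adjusted p = 1.5e-04).

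By day, 0 of the 9 genes were called at days 0, 1 and 3 by limma, where 0%, 0.0259% and 1.03% of the 11594 genes tested were called higher and 0%, 0.00863% and 0.138% lower. At an unadjusted p below 0.05 limma gave 0, 0 and 5 of them. Of all 11594 tested genes, 265, 825 and 2810 had such a p, in either direction. Voom on the recovered reads called 0, 0 and 1 of the 9, the last being Asz1. At day 9, 3 of the 9 were called higher, where 2.81% of all tested genes were, and at day 11 it was 1 (Asz1) where 3.61% were. At day 17, 4 were called higher against 6.01% of all genes, and at day 25 it was 6 against 6.23%. The 6 became 4 without KO day 25 replicate 1, as Mov10l1 and Tex101 then left the test. On these 4 days limma and voom on the filtered genes called 0 of the 9 lower (2, 1, 1 and 0 at an unadjusted p below 0.05), against 0.388%, 0.612%, 0.716% and 7.50% of all genes. Of all 11594 tested genes, 4484, 5219, 5609 and 7997 had an unadjusted p below 0.05 on these days, in either direction. On the mean of days 3, 9, 11, 17 and 25, Asz1, Dazl, Tex19.1 and Tex101 were called higher against 2.40% of all genes, and 0 lower (1 at an unadjusted p below 0.05, 0 by voom) against 0.155%. On that mean 7277 of the 11594 tested genes had an unadjusted p below 0.05, in either direction. Asz1 and Tex101 passed the filter only through KO libraries, so counts that hold them are not evidence about the group. Leaving them out, the genes called higher were Dazl and Tex19.1 on the mean and at days 9 and 17, and no gene at day 11. At day 25 they were Dazl, Tex19.1, Piwil2 and Mov10l1. The Tex101 mean, 1.02 ± 0.16 (limma adjusted p = 1.9e-05), fell below the size limit without KO day 3 replicate 1, KO day 9 replicate 1, WT or KO day 11 replicate 2, WT day 17 replicate 2 or WT day 25 replicate 1, with values of 0.91 to 0.99, and Tex101 left the test without KO day 17 replicate 1 or KO day 25 replicate 1. The mean log2 differences of Dazl and Tex19.1 were 1.98 ± 0.05 and 1.27 ± 0.05, and Piwil2, at 0.68 ± 0.05, was below the size limit.

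**Figure D2:**
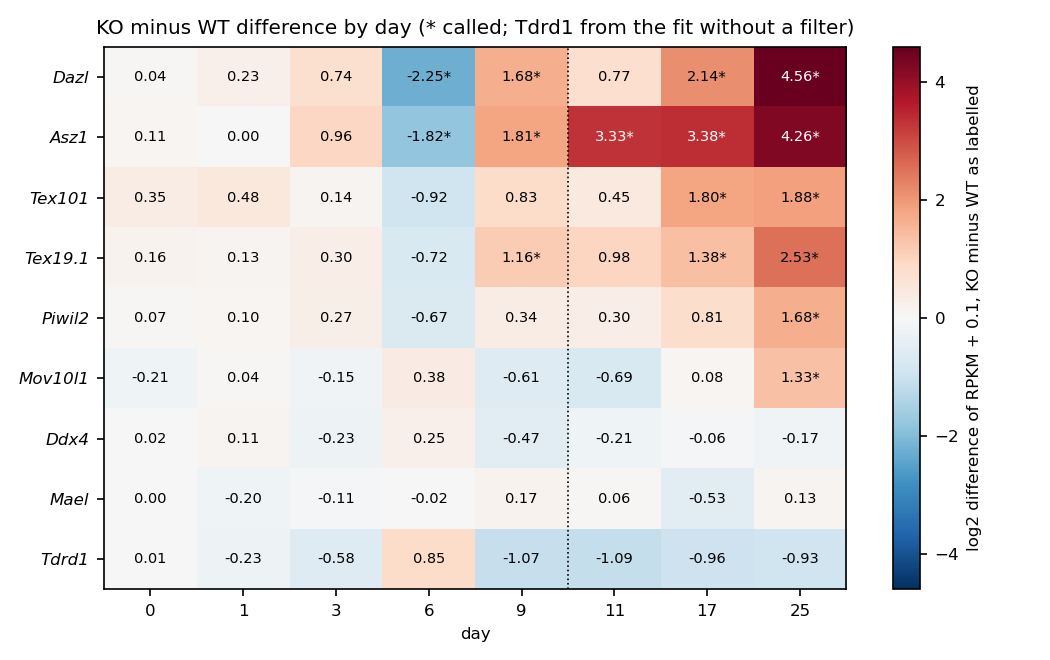
Log2 difference of RPKM + 0.1, KO minus WT as labelled (colour and numbers), for each gene (rows) and day (columns), with asterisks on called genes. Dazl goes from 0.04 at day 0 to 4.56 at day 25, Ddx4 stays between -0.47 and 0.25, and the day 6 column runs opposite to that of day 9. The Tdrd1 row, from the fit without a filter, carries no asterisks.

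The change of the KO minus WT difference between days was tested within each set of libraries. Between days 3 and 9, 0 genes of the 9 were called by limma (3 at an unadjusted p below 0.05, 0 by voom), where 0.552% of tested genes were called higher and 0.0863% lower. An unadjusted p below 0.05 was reached by 1900 of the 11594 tested genes. The change of Dazl was 0.93 ± 0.16 (limma adjusted p = 0.0019), and it passed the size limit, at 1.01, without WT day 3 replicate 1. Between days 11 and 25, the differences of Dazl, Mov10l1, Tex19.1, Tex101 and Piwil2 rose, where 7.10% of tested genes were called higher and 12.1% lower. That of Mov10l1 changed sign, from -0.69 to 1.33. Voom called 4 of the 9 higher, without Tex101 (limma adjusted p = 0.098). The change was 3.79 ± 0.16 for Dazl, 2.02 ± 0.25 for Mov10l1 and 1.55 ± 0.16 for Tex19.1, with limma adjusted p-values of 7.7e-13, 1.5e-06 and 1.9e-07. The KO level of Dazl went from 6.64 and 5.17 RPKM to 12.1 and 12.6 RPKM over those days, while the WT level went down.

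In the WT over days 0 to 9, 0 of the 9 genes were called by limma (3 at an unadjusted p below 0.05, 0 by voom), where 0.216% of tested genes were called higher and 0.250% lower. An unadjusted p below 0.05 was reached by 3525 of the 11594 tested genes. Between WT days 11 and 25, Dazl and Mov10l1 fell, where 8.25% of tested genes were called lower and 10.7% higher. Dazl fell by 2.73 ± 0.11 on the log2 scale (limma adjusted p = 7.1e-14) and Mov10l1 fell by 1.54 ± 0.18 (limma adjusted p = 1.3e-07). Ddx4 went from 2.71 and 2.97 RPKM to 4.75 and 5.19 RPKM, a log2 difference of 0.78 ± 0.11 (limma adjusted p = 1.7e-06) that was below the size limit. Over the same days the KO libraries of Mov10l1 went from 0.657 and 0.681 RPKM to 1.04 and 0.906 RPKM.

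At day 6, as labelled, Dazl stood at 3.73 and 4.14 RPKM in the libraries labelled WT and 0.798 and 0.700 RPKM in those labelled KO, and Asz1 had 77 reads in the former and 0 in the latter. Both were called lower in the libraries labelled KO (log2 difference -2.25 ± 0.11 for Dazl, limma adjusted p = 3.3e-12), where 3.03% of tested genes were and 0.293% were called higher. The difference at day 6 was lower than that at day 9 for Dazl, Asz1, Tex19.1, Tex101 and Piwil2, where 9.38% of tested genes were called lower and 2.79% higher. The change of Piwil2, -1.01, was under the size limit when WT day 6 replicate 2, KO day 6 replicate 1, WT day 9 replicate 1 or KO day 9 replicate 1 was left out singly, and that of Tex101 lost its call without KO day 9 replicate 1. Tdrd1 lay the other way, at 0.030 and 0.054 RPKM in the libraries labelled WT and 0.159 and 0.151 RPKM in those labelled KO.

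Of 28 further genes listed for the piRNA pathway, 27 were in the table and 16 were tested. The list was broader than the core pathway, and Mov10, Tdrd3, Ddx25, Dnd1 and Nanos3 were among the genes tested. On the mean over the 5 days 3 of the 16 were called higher, where 2.40% of all tested genes were, and limma called 0 lower, where 0.155% were (8 higher and 3 lower at an unadjusted p below 0.05, 3 and 0 by voom), with a median log2 difference of 0.11 over those tested, beside 0.06 over all genes. Of all 11594 tested genes 7277 had an unadjusted p below 0.05 on that mean, in either direction. The 3 called higher were Fkbp6, a co-chaperone of the PIWI proteins, Gpat2, a mitochondrial enzyme that binds MILI, and Tdrd12, a tudor-domain helicase. For Fkbp6 and Gpat2 the WT libraries above 1 RPKM were those labelled WT at day 6. Fkbp6 had 1 read at day 25 in the WT and levels of 4.78 and 4.36 RPKM in the KO. Gpat2 stood at 0.722 and 0.477 RPKM in the WT and 2.76 and 2.91 RPKM in the KO at day 25, with a mean log2 difference of 1.76 ± 0.07 (limma adjusted p = 8.0e-15). Tdrd12 stood at 1.51 and 1.42 RPKM in the WT and 4.53 and 3.79 RPKM in the KO, with a mean log2 difference of 1.12 ± 0.06 (limma adjusted p = 4.1e-13). The other PIWI genes were not tested: at day 25 Piwil1, which encodes MIWI, held 0 and 0.047 RPKM in the WT and 0.060 and 0.025 RPKM in the KO, and Piwil4, which encodes MIWI2, held 0.087 and 0.075 RPKM in the WT and 0.374 and 0.188 RPKM in the KO.

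Of 14 other germline genes known for promoter methylation, 12 were tested, and 7 were called higher and 1 lower on the mean, against the same 2.40% and 0.155% of all tested genes (10 higher and 2 lower at an unadjusted p below 0.05, 7 and 1 by voom), with a median log2 difference of 1.06. An unadjusted p below 0.05 on the mean was reached by 7277 of all 11594 tested genes, in either direction. Tex12 and Slc25a31 of the 7 called higher passed the filter only through KO libraries. The largest were Hormad1, a meiotic chromosome axis gene, at 2.18 ± 0.06 (limma adjusted p = 1.5e-17), Tex12, a synaptonemal complex gene, at 1.99 ± 0.21 (limma adjusted p = 5.1e-08), and Smc1b, a meiotic cohesin gene, at 1.75 ± 0.07 (limma adjusted p = 6.6e-15). Sycp3, a component of the synaptonemal complex axis, fell by 1.22 ± 0.08 on the mean (limma adjusted p = 1.8e-11), with 2.74 and 2.62 RPKM in the WT and 1.46 and 1.68 RPKM in the KO at day 25. Of 17 genes of the complexes that repress germline genes, 16 were tested in 17 rows, and limma called 0 higher and 0 lower on the mean (5 and 6 at an unadjusted p below 0.05, 0 and 0 by voom), with a median log2 difference of 0.04. These unadjusted counts stand beside the same 7277 of 11594 genes. At day 25 limma called 0 of the 17 rows higher and 1 lower, where 6.23% and 7.50% of all tested genes were. For the change from day 11 to day 25 it called 1 higher (Rnf2, at 1.35) and 1 lower, where 7.10% and 12.1% were.

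**Figure D3:**
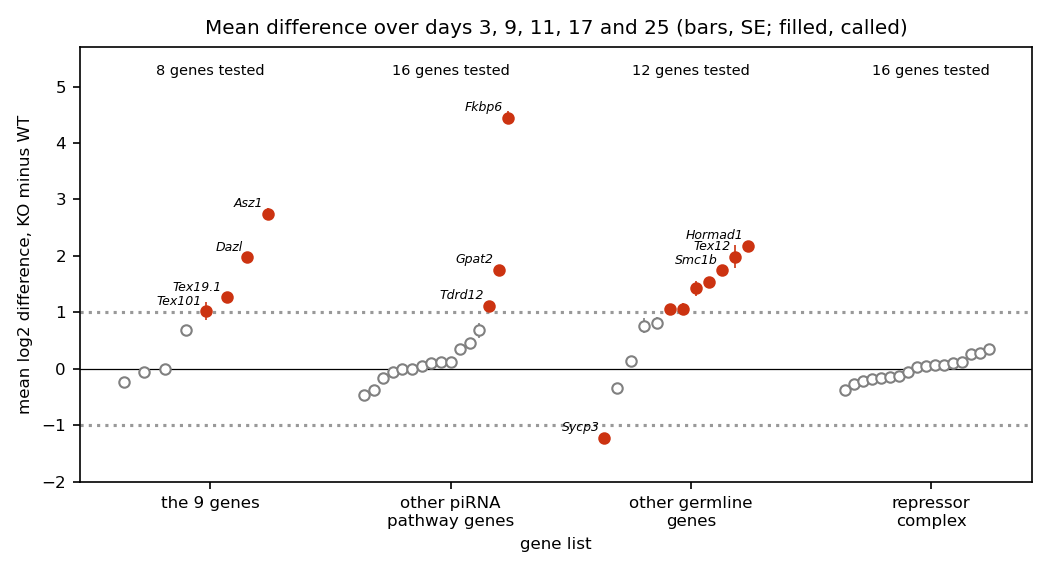
Mean log2 difference of RPKM + 0.1, KO minus WT over days 3, 9, 11, 17 and 25 (vertical axis), for the genes tested of each list (horizontal axis), with bars for 1 SE, filled points for called genes, and dotted lines at the size limit of 1. Fkbp6, at 4.45, and Asz1, at 2.75, stand highest, both on a scale that depends on the pseudocount, and no point of the repressor complex is filled.

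Across the 32 libraries, after centring each library on its median, the 5 genes whose log2 levels followed the mean of the 8 tested genes most closely were Gm364 (Pearson r = 0.95), Scml2 (0.94), Xlr4a (0.92), Ccdc152 (0.91) and Wfdc15a (0.90). The libraries share days, culture and the 2 sets of gene read shares, so these are descriptions with no test. Gm364 stood at 0.139 and 0.154 RPKM in the WT and 11.4 and 11.5 RPKM in the KO at day 25. Scml2, a Polycomb-group gene of the germline, stood at 0.206 and 0.186 RPKM in the WT and 4.10 and 4.29 RPKM in the KO. Among the 9 genes, Dazl and Asz1 followed each other with r = 0.84 and Asz1 and Tex19.1 with r = 0.83, whereas Dazl and Ddx4 had r = -0.48 and Mov10l1 and Asz1 r = -0.05.

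Markers of other cell types were read in the same libraries, and several lists summed higher in the KO at day 25. In the libraries of days 11 to 25, the 6 measured of 7 primordial germ cell markers summed to 15.9 to 36.4 RPKM in the WT and 31.4 to 47.9 RPKM in the KO. At day 25 they summed to 15.9 and 17 RPKM in the WT and 31.4 and 31.5 RPKM in the KO, and none was at 0 reads in either group. Dppa3 made up most of that sum, at a mean of 9.46 RPKM in the WT and 21.2 RPKM in the KO. Prdm14 stood at a mean of 0.591 RPKM in the WT and 2.62 RPKM in the KO, Kit at 1.53 and 2.24 RPKM and Dnd1 at 2.70 and 3.36 RPKM. Nanos3 stood at 1.34 and 1.47 RPKM, and Prdm1, lower in the KO, at 0.817 and 0.529 RPKM. At day 25, 2 of the 6 were called higher and 0 lower, where 6.23% and 7.50% of all tested genes were. The 9 spermatocyte and spermatid markers summed to 0.339 to 1.08 RPKM in the WT and 1.48 to 3.15 RPKM in the KO of those days, where Pgk2, Prm1 and Prm2 were at 0 reads in the KO and Spo11, Prm2 and Tnp1 in the WT, and the 7 oocyte markers summed to 0.624 to 2.54 RPKM in the WT and 1.49 to 3.1 RPKM in the KO, with Figla at 0 reads in the KO and Bmp15 in the WT. At day 25 Zp3 made up most of the oocyte sum, at a mean of 0.554 RPKM in the WT and 1.36 RPKM in the KO. Every other oocyte marker was at 0.065 RPKM or less. Most of the spermatocyte and spermatid sum was Stra8, at 0.786 and 0.909 RPKM, and Ldhc, at 0.093 and 0.534 RPKM. The rest of that list was at 0.122 RPKM or less. Figla, Zp1 and Pgk2 were lower in the KO. In the libraries of days 11 to 25, the 3 measured of 5 markers of the 2-cell embryo summed to 0 to 0.058 RPKM in the WT and 0.823 to 8.02 RPKM in the KO. At day 9 these 3 markers summed to 0.035 and 0.082 RPKM in the WT and 3.69 and 3.70 RPKM in the KO, the spermatocyte and spermatid markers to 0.448 and 0.693 RPKM in the WT and 1.87 and 1.98 RPKM in the KO, and the oocyte markers to 0.305 and 0.394 RPKM in the WT and 0.679 and 0.807 RPKM in the KO. The 14 fibroblast markers, a guide to feeder cells, summed to 1.17 to 2.78 RPKM in the WT and 1.09 to 1.88 RPKM in the KO of those days, and at day 9 to 9.57 and 11 RPKM in the WT and 18.4 and 20.7 RPKM in the KO. The part of these in the differences above was not tested, and in bulk RNA more cells of a kind and more RNA per cell cannot be told apart.

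The Dicer KO library was set beside the 6 WT libraries of days 11, 17 and 25, with no test, since it is a single library. Dicer1 read 4.02 RPKM in it against 3.91 to 8.57 RPKM in the WT, so its level does not separate this library from them. Of the 9 genes, 1 lay more than 1 log2 unit outside the WT range, Piwil2, at 0.537 RPKM against 1.68 to 3.02 RPKM, below it, as did 3.77% of 11025 genes, and 0 lay as far above it, as did 5.95%. Dazl was at 0.193 RPKM, under all 6 WT libraries (0.404 to 3.40 RPKM), and Mov10l1 at 0.120 RPKM, under the WT range of 0.300 to 1.40 RPKM. Asz1 had 0 reads, and Tex101, with 1 read at 0.037 RPKM, lay under its WT range of 0.074 to 0.320 RPKM. Tex19.1, at 24.3 RPKM, and Ddx4, at 7.43 RPKM, lay above the WT ranges of 10.6 to 14.8 and 2.71 to 5.19 RPKM, while Mael, at 4.04 RPKM, lay under its range of 7.06 to 9.18 RPKM. Tdrd1, at 0.449 RPKM, was within its range of 0.170 to 0.453 RPKM. The 14 fibroblast markers summed to 59.9 RPKM in the Dicer KO library, and their part in these values was not tested.

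**Figure D4:**
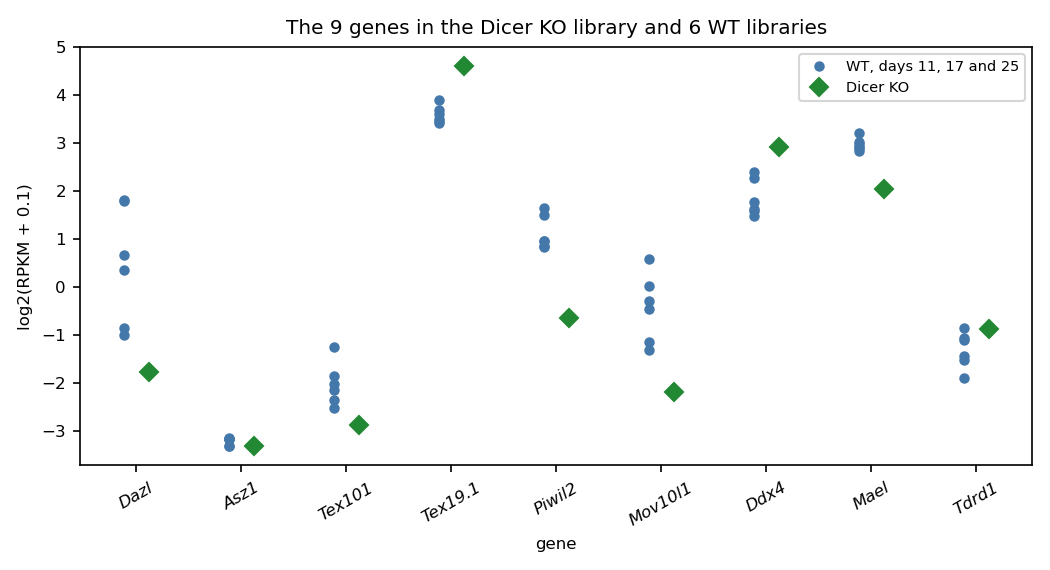
Log2(RPKM + 0.1) of each gene (vertical axis) in the Dicer KO library (green diamonds) and in the 6 WT libraries of days 11, 17 and 25 (blue circles). The diamond of Piwil2 lies more than 1 unit under the lowest circle, those of Dazl, Mov10l1, Mael and Tex101 under their circles by less, and those of Tex19.1 and Ddx4 above theirs.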

How the data were processed

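Total RNA (ribosomal RNA depleted, stranded) from 35 libraries was sequenced in pairs by the study, trimmed with Trim Galore (0.3.5 per the submitters' notes), aligned with TopHat2 (2.0.11) to NCBIM37, filtered on mapping quality and quantified over exons in SeqMonk. The deposited table holds linear RPKM values, whereas the methods name log2 RPM. Whether gene counting used strand is not given in the sources used here.

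Whole reads were recovered from the RPKM steps and the exon lengths of the annotation (99.51% to 99.74% of low values whole within 0.1), which gave depths of 24.31 to 72.09 mega-reads. Counting intervals and floors cover counting error only. Genes above 1 RPKM in at least 2 of 32 libraries (11594 of 26127 rows) were fitted with limma 3.58.1 (R 4.3.3; eBayes with trend) on log2(RPKM + 0.1) over 16 group means, with Benjamini-Hochberg adjustment over all tested genes. A call needed an adjusted p below 0.05 and a log2 difference of at least 1, the size limit standing in for the second filter of the study. Fold changes on this scale understate low genes. The 9 genes, the other lists and the tests were chosen with earlier results of these data known. Named were all 9 genes, the called piRNA pathway genes on the mean by size up to 8 with Piwil1 and Piwil4, called repressor genes up to 4, up to 3 other germline genes by size, and the 5 most similar genes; Sycp3 was named after its values were seen. Same-numbered WT and KO libraries deviated together with correlations of -0.15 to 0.26 by day, so the numbers were not taken to pair them. No replicate pair agreed within sampling noise (the lowest ratio of chi-square to its degrees of freedom was 1.31). The fit was tested on simulated data. Alternatives were other libraries, pseudocounts, filters, scalings, voom, a replicate block and leaving out each library.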

Additional observations from a re-analysis of the deposited data

Results flagged for a closer look

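The KO minus WT difference of 10 gene and day pairs changed between days by a test of the change itself. From day 11 to day 25 it rose by 3.79 for Dazl, 2.02 for Mov10l1 and 1.55 for Tex19.1 on the log2 scale (limma adjusted p = 7.7e-13, 1.5e-06 and 1.9e-07). Over the same days it rose by 1.43 for Tex101 and 1.38 for Piwil2 (limma adjusted p = 0.024 and 1.4e-06). At day 6 against day 9 it was lower, with changes of -3.93 for Dazl, -3.63 for Asz1, -1.88 for Tex19.1, -1.75 for Tex101 and -1.01 for Piwil2 (limma adjusted p = 3.0e-14, 3.0e-09, 6.3e-09, 0.0099 and 5.6e-05). In the same day 6 libraries Dnmt1 ran opposite to the labels, with a change of 5.16 against day 9 (limma adjusted p = 2.2e-16).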

How the results depend on the processing

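Counts below are of the 9 genes called. Day 25 gave 4 in place of 6 and day 9 gave 2 in place of 3 both with a pseudocount of 1 and with only the groups compared, Mov10l1 and Tex101 (day 25) and Asz1 (day 9) losing their calls. With a pseudocount of 1, day 6 gave 1, day 11 gave 0, day 17 gave 2, the mean gave 2, the change from day 11 to 25 gave 3, day 6 against day 9 gave 2 and WT day 25 against day 11 gave 1. With a pseudocount of 0.01 or with voom, day 3 gave 1 (Asz1). The change from day 11 to 25 then gave 4, Tex101 losing its call (limma adjusted p = 0.17 and 0.098). With only the groups compared, day 6 gave 1, day 11 gave 0, day 17 gave 2, day 6 against day 9 gave 3 and WT day 25 against day 11 gave 1, the lost genes (Asz1, Tex101, Mov10l1) no longer passing the filter. With the further day 1 pair included, the change from day 11 to 25 and that of day 6 against day 9 each gave 2, and Tex19.1 lost its day 9 call. By adjusted p alone, day 3 gave 2, day 6 gave 4, day 9 gave 6 (4 higher and 2 lower) and day 11 gave 4. Under the same rule the change from day 3 to 9 gave 2 and WT day 9 against day 0 gave 2. WT day 25 against day 11 gave 4 (1 higher and 3 lower). Over all 11594 tested genes, such calls up and down numbered 901 and 482 (day 3) and 1043 and 2206 (day 6). They numbered 1986 and 1259 (day 9), 2686 and 1467 (day 11), and 241 and 90 (change from day 3 to 9). In the WT they numbered 1000 and 897 (day 9 against day 0) and 4058 and 3899 (day 25 against day 11). Without a filter, day 11 gave 2, Tdrd1 being added as lower. With day 6 included as labelled the mean gave 2 (Dazl and Asz1). The cause of the other moves was not tested.

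Without a single library, the count ranged from 0 to 1 at day 3, 1 to 2 at day 11, 3 to 4 at day 17, 4 to 6 at day 25, 3 to 4 on the mean, 0 to 1 for the change from day 3 to 9, 3 to 6 for that from day 11 to 25, 4 to 5 for day 6 against day 9 and 1 to 2 for WT day 25 against day 11. The 2 at day 11 came without WT or KO day 11 replicate 2 (Tex19.1 added, at 1.02 and 1.12), the 1 at day 3 without KO day 3 replicate 2 (Asz1 added), and the 3 and the 1 of WT day 25 without WT day 11 replicate 1, where Mov10l1 was no longer tested. The 4 at day 25 came without KO day 25 replicate 1 and the 3 at day 17 without KO day 17 replicate 1, where Mov10l1 and Tex101, or Tex101, were no longer tested. The Piwil2 change of day 6 against day 9 ranged from -1.11 to -0.91, falling under the size limit without WT day 6 replicate 2, KO day 6 replicate 1, WT day 9 replicate 1 or KO day 9 replicate 1. Without each of these 4 Mov10l1 was called higher, and without the last Tex101 lost its call too (limma adjusted p = 0.057). The Tex101 change from day 11 to 25 lost its call without WT day 11 replicate 1, KO day 11 replicate 1 or WT day 25 replicate 1 (limma adjusted p = 0.063 to 0.097). The Mov10l1 mean, near 0, changed sign with voom (0.0197), with day 6 (0.059) and without single libraries (-0.062 to 0.019). For the Dicer KO library, all WT libraries or a pseudocount of 1 left 0 of the 9 genes more than 1 log2 unit outside the range. Of all genes, 672 of 11209 lay that far above and 127 below with all WT libraries. With a pseudocount of 1 it was 469 and 146 of 11025. Dazl, Mov10l1 and Piwil2 still lay under all 17 WT libraries, and Ddx4 and Tex19.1 above them, by less than that. These 17 include libraries with the low share of gene reads, to which levels are not otherwise compared, and those labelled WT at day 6. Against them the median log2 difference of all genes was 0.63, higher in the Dicer KO library.

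A replicate block, coded within each day, gave the same counts as the fit without it in all 14 comparisons, for example 6 called higher at day 25. Median centring moved the median of all genes at day 17 from 0.09 to -0.09 and left the day counts of the 9 genes as they were, but the mean gave 3 (Tex101 lost, at 0.94), the change from day 11 to 25 gave 6 (Asz1 added) and day 6 against day 9 gave 1 higher and 4 lower (Mov10l1 added, Piwil2 lost at -0.90). At these depths Asz1, Tex101 and Tdrd1 rested on few reads.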
